A study of Mus musculus with 8 samples.

Results

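The genes of the mitochondrial respiratory chain and ATP synthase were examined in RNA from mouse buffy coat, the layer of white blood cells and platelets that forms over the red cells when blood is spun. They were chosen by name: protein coding genes whose GENCODE M21 symbols start with mt-, Nduf, Sdha, Sdhb, Sdhc, Sdhd, Uqcr, Cox4, Cox5, Cox6, Cox7, Cox8, Cyc1, Cycs or Atp5. The rule found 113 of the 35944 genes in the table, 13 encoded by mitochondrial DNA and 100 in the nucleus. The symbol Atp5o stands for 2 identifiers. The study compared 4 libraries from PM2.5-exposed mice (replicates 9, 17, 18 and 21) with 4 from PBS controls (replicates 4, 10, 12 and 16), both after 24 weeks. PM2.5 is fine particulate matter, and PBS is buffered saline. The labels state no strain, sex, age, dose or route. They do not say whether the libraries are from different animals, and p-values measure the spread between these libraries, which may be technical. Values of single libraries are given in the order of the replicates just listed.

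The respiratory chain passes electrons from NADH through complex I, or from succinate through complex II, by way of ubiquinone to complex III, cytochrome c and complex IV, which reduces oxygen. Complexes I, III and IV pump protons, and complex V, the ATP synthase, uses the proton gradient to make ATP. Most subunits are encoded in the nucleus, but core subunits of complexes I, III, IV and V are encoded by mitochondrial DNA, which is transcribed as long polycistronic precursors that are then processed into single RNAs. Mature red cells have no mitochondria, reticulocytes are clearing theirs, and platelets carry mitochondria without a nucleus.

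Part of mouse mitochondrial DNA also lies on chromosome 1, where GENCODE annotates stretches of it as unprocessed pseudogenes, and these copies bear on the counts of several mitochondrial genes. The last bases of 3 mitochondrial genes and of their copies are shown because the copies took nearly all of their counts. In these 3 pairs capitals mark bases of the mitochondrial gene that lie past the end of the annotated copy. Whether chromosome 1 carries the same bases beyond that end was not examined. The mt-Nd3 pair is shown for its single difference, in capitals. Positions are of GRCm38, with mitochondrial genes on the plus strand of chrM and copies on the minus strand of chromosome 1.
mt-Co2, chrM:7637-7696: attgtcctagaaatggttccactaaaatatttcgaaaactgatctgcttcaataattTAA
Gm28661, chr1:24614885-24614941: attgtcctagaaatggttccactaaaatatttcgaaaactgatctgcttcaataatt
mt-Atp6, chrM:8548-8607: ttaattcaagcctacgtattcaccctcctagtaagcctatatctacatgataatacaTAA
Gm10925, chr1:24613974-24614030: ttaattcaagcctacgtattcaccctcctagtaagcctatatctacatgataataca
mt-Co3, chrM:9331-9390: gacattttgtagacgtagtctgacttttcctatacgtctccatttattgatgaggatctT
Gm28437, chr1:24613189-24613247: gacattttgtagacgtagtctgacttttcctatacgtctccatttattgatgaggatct
mt-Nd3, chrM:9459-9518: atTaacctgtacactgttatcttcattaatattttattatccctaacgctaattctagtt
Gm28438, chr1:24613060-24613119: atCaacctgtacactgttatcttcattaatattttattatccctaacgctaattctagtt

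Over their whole length the copies of mt-Co2, mt-Atp6, mt-Co3 and mt-Nd4l had 0 mismatches, and that of mt-Nd3 had 1, T3C counted from the gene's 5′ end. The deposited table listed mt-Co2, the second subunit of cytochrome c oxidase, at 0 in all 8 libraries. Its copy Gm28661 held 2341, 1321, 1706 and 2455 expected counts in PM2.5 libraries, against 3388, 3155, 2668 and 2391 in PBS libraries. mt-Atp6, the proton channel subunit of complex V, was also listed at 0 throughout, while Gm10925 held 1147, 438, 667 and 1892 counts in PM2.5 libraries, against 988, 1495, 1560 and 902 in PBS libraries. Both genes are therefore listed at 0 beside an identical sequence with many counts, and the listing does not measure their RNA.

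mt-Co3, the third core subunit of complex IV, had 7.73, 8.97, 3.07 and 4.08 counts in PM2.5 libraries, against 7.95, 3.75, 1221 and 9.23 in PBS libraries. PBS replicate 12 thus stood far above the other 7. Its copy Gm28437 held between 5112 and 8928 counts in PM2.5 libraries and between 9885 and 11620.2 in PBS libraries, which was 89.002% of the pair's counts in PBS replicate 12 and at least 99.8% in the others. mt-Nd3 was listed at 0 in every library but PM2.5 replicate 21, with 24.99 counts, while its copy held from 16 to 98. mt-Nd4l had counts in 3 libraries, from 12.4 to 18, and Gm10222 took the whole of the pair's counts in 5. Gm28439 covers the first 876 of the 1378 bases of mt-Nd4 without a mismatch. It held 103.6, 2.08, 0 and 110.4 counts in PM2.5 libraries, against 151.4, 181.0, 141.4 and 51.9 in PBS libraries. Between 0% and 48.4% of the pair's counts went to it. mt-Co1 was nearly free of this: Gm29216, which matches its last 483 bases, held at most 7.35 counts, or 0.0122% of the pair.

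**Figure D1:**
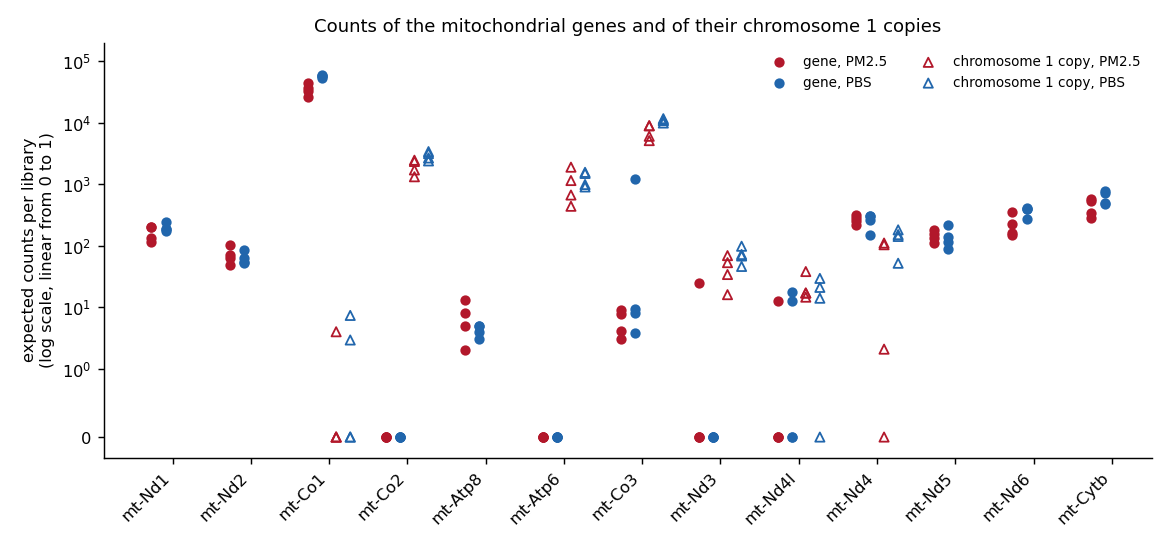
Expected counts in each library (vertical axis, log scale, linear from 0 to 1) for the 13 mitochondrial genes in genome order (filled circles) and the 7 chromosome 1 copies (open triangles), PM2.5 in red and PBS in blue. mt-Co2 and mt-Atp6 lie at 0 with copies between 438 and 3388 counts, and 1 PBS library of mt-Co3 lies at 1221 while the others are at 9.23 or less.

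Haemoglobin genes took 86.7% to 88.6% of counts in PM2.5 libraries and 82.4% to 87.9% in PBS libraries, of totals of 72728282 to 84971367 and 72042685 to 89003605 counts. Other genes had 9615115 to 11008297 counts in PM2.5 libraries and 10739168 to 12714432 in PBS libraries. Leukocyte and platelet markers were present, and muscle markers had a summed level of at most 0.256 CPM. Brain markers summed to between 23.0 and 35.6 CPM in PM2.5 libraries and between 19.6 and 28.2 CPM in PBS libraries. PM2.5 replicates 17 and 18 stood apart in scaling, with TMM factors of 0.644 and 0.638 against 0.832 to 1.52 in the other 6 libraries. All p-values of genes are from edgeR's quasi-likelihood test over 10361 genes with Benjamini-Hochberg adjustment, called at 0.05. CPM is the usual count level relative to library size, here with TMM-scaled libraries and haemoglobin included, and log2 fold changes are PM2.5 over PBS. In bulk RNA, fewer cells of a type and less RNA per cell cannot be told apart.

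Of the 113 genes, 90 passed the filter on low counts and 23 did not. Of the 23, 9 were listed at 0 in every library: mt-Co2, mt-Atp6, the second Atp5o identifier, Ndufa4l2 and the tissue variants Cox4i2, Cox6a2, Cox7b2, Cox8b and Cox8c. The other 14 did not reach the filter's minimum in enough libraries. They were mt-Atp8, mt-Co3, mt-Nd3, mt-Nd4l, Cox7a1, Atp5g2, Atp5k and the assembly factors Ndufaf1, Ndufaf2, Ndufaf5, Ndufaf6, Ndufaf8, Sdhaf3 and Sdhaf4. No statement on a change is made for these 23 from the fit.

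Levels per length, as the FPKM values the authors deposited, spanned the whole range within single complexes. mt-Co1, the catalytic subunit of complex IV, was highest, with 401, 246, 310 and 409 FPKM in PM2.5 libraries, against 664, 590.5, 512 and 507 in PBS libraries. Atp5b, the catalytic beta subunit of complex V, followed with 193, 145, 179 and 291 FPKM in PM2.5 libraries, against 250.1, 274, 232 and 288 in PBS libraries. Its partner Atp5a1, the alpha subunit, which stands beside it in equal number in the enzyme's head, averaged 4.19 FPKM over the 8 libraries, compared with 231 for Atp5b. Atp5b alone supplied 32.2% to 35.5% of all counts of the nuclear members in PM2.5 libraries and 34.3% to 37.2% in PBS libraries. Some small structural subunits were high: Atp5l (subunit g of complex V) averaged 178 FPKM, Cox6c 139, Uqcrh (the hinge protein of complex III) 99.7 and Cox8a 94.0. Others were low, such as Ndufc2 with 0.334 and Ndufb3 with 0.52. The length that these FPKM imply was 294 bases under the transcript's own in the median member transcript. That raises the FPKM of short transcripts most, so small and large subunits compare only roughly. In Uqcrh, 19.5% to 38.8% of counts in PM2.5 libraries and 25.8% to 40.5% in PBS libraries came from transcripts annotated as noncoding.

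Complex II lay low as a whole. Sdha, the flavoprotein that oxidises succinate, averaged 2.40 FPKM over the 8 libraries, Sdhb, the iron-sulfur subunit, 1.21, Sdhd 0.871 and Sdhc 0.376, the last pair being membrane anchors. Complex I had a median of 1.64 FPKM over its 43 genes, and its highest members were Ndufa1 with 38.2 and Ndufa3 with 31.0, both accessory subunits. Medians were 6.37 FPKM for the 10 genes of complex III and 24.0 for the 22 of complex IV. For the 19 genes of complex V the median was 3.82 FPKM. Cycs, the gene of somatic cytochrome c, averaged 0.289. The FPKM of mt-Atp8, 22.2 on average, rests on 2 to 13 counts per library for a gene of 204 bases, whose implied effective length is 3.17 bases, and is not a usable level.

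**Figure D2:**
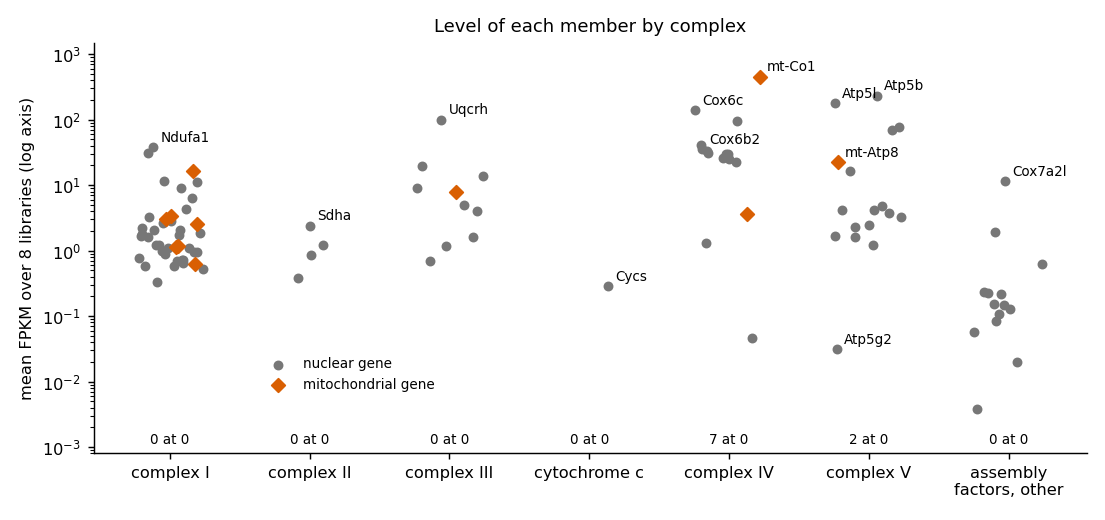
Mean deposited FPKM over the 8 libraries (log axis) of each gene, by complex, with mitochondrial genes as orange diamonds and nuclear genes as grey circles. Genes at 0 in every library are counted at the foot, 7 in complex IV and 2 in complex V, and mt-Co1 (455 FPKM) and Atp5b (231 FPKM) are at the top. The point of mt-Atp8 rests on 2 to 13 counts per library.

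Complex IV has subunits with paired genes for different tissues, and the common form was the one counted in most pairs. Cox4i1, Cox6a1, Cox7a2, Cox7b and Cox8a averaged between 25.6 and 94.0 FPKM over the 8 libraries. Their counterparts Cox4i2 (lung), Cox6a2 and Cox8b (heart and muscle) and Cox7b2 and Cox8c (testis) were at 0 in all 8 libraries, and Cox7a1 (heart and muscle) had at most 1 count. Cox6b2, known as the testis form of subunit 6b, departed from this. It had 26.6, 23.7, 22.2 and 47.2 FPKM in PM2.5 libraries, against 40.0, 38.7, 34.7 and 48.0 in PBS libraries, where Cox6b1 had 26.8, 14.9, 13.4 and 33.8 in PM2.5 libraries, against 28.4, 22.4, 19.6 and 22.9 in PBS libraries. Cox6b2 was above Cox6b1 in 7 of the 8 libraries, and transcripts annotated as noncoding made up 3.75% of its counts on average.

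The exposure was then compared with PBS over all tested genes. None of the 90 respiratory chain genes passed the test, where 166 of 10361 genes did (1.6%), 48 higher and 118 lower. At an unadjusted p under 0.05, 8 were higher and 1 was lower, or 10% of the 90, where 18% of all genes reached that. Libraries of the groups did not overlap for 7 of the 90 (7.78%), a share that was 9.66% over all genes. The smallest adjusted p was 0.0601, for mt-Nd4, and DESeq2, run as an alternative, called that gene alone among the 90 (371 of 10361 genes, 3.58%). Without the filter 4 were called (mt-Nd4, Uqcr10, mt-Co3 and mt-Nd3), where 3.46% of 18035 genes were. Of the 4, mt-Co3 and mt-Nd3 each stood high in 1 library only, PBS replicate 12 and PM2.5 replicate 21. With the chromosome 1 copies added, their adjusted p were 0.797 and 0.920. Without PM2.5 replicate 21 mt-Nd4 was called, where 0.799% of 10632 genes were. Most fold changes were small: 83 of the 90 lay within a 1.5-fold difference in either direction. That share was not computed over all genes.

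The log2 fold change was above 0 in 71 of the 90 genes (78.9%), where 54.4% of all genes were above 0. The median was 0.13 for the 83 nuclear genes tested, 0.25 for the 7 mitochondrial ones and 0.04 for all genes. By complex it was 0.15 for complex I (41 genes), 0.12 for complex II (4), 0.08 for complex III (10), 0.16 for complex IV (13), 0.11 for complex V (14) and -0.11 for assembly factors and others (7). These medians depend on the scaling: with library totals in place of TMM factors, the median of all genes moved to -0.52, of the nuclear genes to -0.41 and of the mitochondrial ones to -0.28. The nuclear genes stayed above the median of all genes, by 0.09 with TMM and by 0.12 with library totals, but lay below it by 0.07 on the log2(FPKM + 1) scale and by 0.04 with an erythroid covariate.

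**Figure D3:**
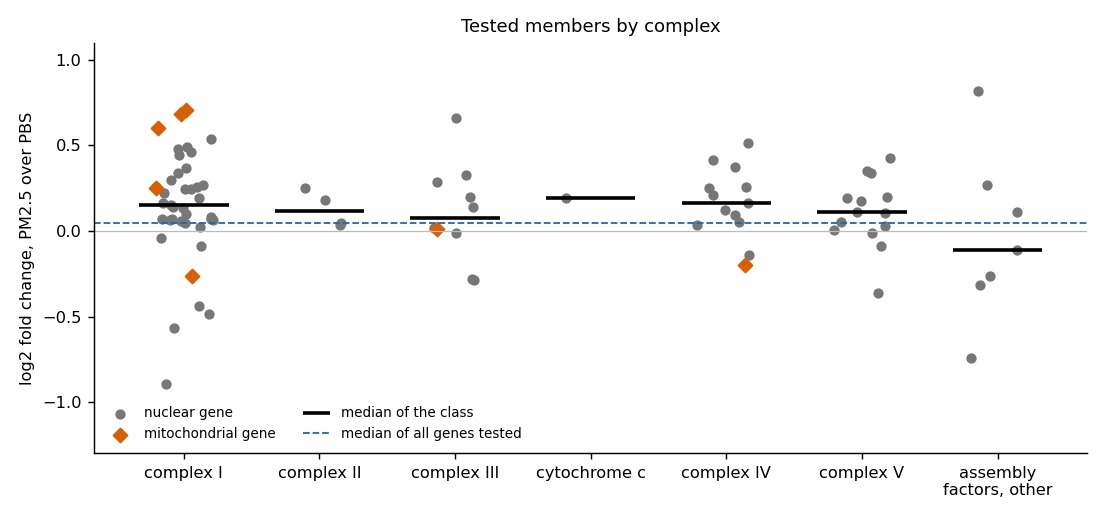
Fitted log2 fold change, PM2.5 over PBS, of the 90 tested genes by complex (grey circles nuclear, orange diamonds mitochondrial), with the median of each class as a black bar and that of all 10361 genes as a dashed line at 0.04. mt-Nd2, mt-Nd4 and mt-Nd5 stand at 0.60 to 0.71, and Ndufb5 at -0.89 is the lowest point.

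Libraries differed along the whole set. The nuclear genes ran highest in PM2.5 replicate 21, which was the top library in 26 of 83 genes and lay 0.26 above the 8-library mean in the median gene (log2 CPM). PBS replicate 10 lay 0.20 below that mean, PM2.5 replicate 9 lay 0.18 below it, and PBS replicate 12 lay 0.10 above it. None of the 19 erythroid markers tested was called, and all had a log2 fold change above 0, with a median of 0.51. Their summed level, which overlapped between the groups, ran from 806088 to 1426275 CPM in PM2.5 libraries and from 560906 to 1084503 CPM in PBS libraries, and can pass the nominal total because TMM scaling shrinks some libraries. With the mean level of erythroid markers other than haemoglobin as a covariate, the median of the nuclear genes was -0.02. The part of erythroid cells in these values was not tested further.

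The 5 tested mitochondrial genes of complex I had log2 fold changes between -0.26 and 0.71. mt-Nd4, a proton-pumping core subunit, had 3.97, 3.96, 5.20 and 3.05 CPM in PM2.5 libraries, against 2.74, 2.85, 2.04 and 2.37 in PBS libraries. Every PM2.5 library was above every PBS library, and the log2 fold change was 0.69 (SE 0.177, adjusted p = 0.0601). With the counts of its chromosome 1 copy added, the same gene had 5.27, 3.99, 5.20 and 4.36 CPM in PM2.5 libraries, against 4.13, 4.54, 3.94 and 2.84 in PBS libraries. The groups then overlapped, and the log2 fold change was 0.28 (SE 0.169, adjusted p = 0.374). Counts of the copy were lowest in PM2.5 replicates 17 and 18, with 2.08 and 0.

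mt-Nd2 has no copy with counts in the table, and had 1.27, 0.898, 1.17 and 0.843 CPM in PM2.5 libraries, against 0.503, 0.783, 0.702 and 0.572 in PBS libraries. The groups did not overlap, but the difference did not pass the test (log2 fold change 0.71, SE 0.226, adjusted p = 0.124). mt-Nd5 had 1.904, 2.40, 2.02 and 2.174 CPM in PM2.5 libraries, against 1.27, 2.03, 1.22 and 1.05 in PBS libraries. Only PBS replicate 10 reached into the PM2.5 range (log2 fold change 0.60, SE 0.200, adjusted p = 0.135). mt-Nd1 averaged 2.38 ± 0.181 CPM in PM2.5 libraries and 2.00 ± 0.349 in PBS libraries (SD, n = 4 each), with overlap. mt-Nd6, the complex I subunit encoded on the other strand of mitochondrial DNA, had 2.84, 2.77, 2.92 and 4.18 CPM in PM2.5 libraries, against 3.63, 3.75, 5.45 and 2.51 in PBS libraries (log2 fold change -0.26, SE 0.210, adjusted p = 0.514). Without PBS replicate 12 the log2 fold change of mt-Nd6 was -0.047. The end of mt-Nd6 overlaps that of mt-Nd5, and the use of strand in the authors' counting is not stated.

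mt-Cytb, the mitochondrial subunit of complex III, averaged 6.25 ± 0.837 CPM in PM2.5 libraries and 6.20 ± 1.16 in PBS libraries (SD, n = 4 each; log2 fold change 0.01, SE 0.173). mt-Co1 had 452, 478, 608 and 516 CPM in PM2.5 libraries, against 549.5, 542, 769.7 and 493 in PBS libraries. Its groups overlapped (log2 fold change -0.20, SE 0.236, adjusted p = 0.683). Among the scalings run, it is the single member whose call changed: with library totals, where 4.66% of all genes were called, the log2 fold change was -0.74 (adjusted p = 0.00803) while the median of all genes was -0.52, and with haemoglobin counts removed and totals, where 2.19% were called, it was -0.52 (adjusted p = 0.0398) while that median was -0.30. Relative to the median of all genes these came to -0.22 and -0.23, and the value with TMM to -0.24. Without PBS replicate 12 the TMM value was -0.039.

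With the copies added, 12 mitochondrial genes could be tested and none passed, where 1.6% of 10360 genes did. mt-Co3 averaged 105.6 ± 8.19 CPM in PM2.5 libraries and 114.3 ± 24.2 in PBS libraries, mt-Co2 28.5 ± 3.09 and 29.5 ± 5.92, and mt-Atp6 14.3 ± 6.06 and 13.1 ± 5.91 (SD, n = 4 each), all with overlap. Their log2 fold changes were -0.11, -0.05 and 0.13. The median log2 fold change of these 12 was 0.07, where that of the 7 genes tested without the copies was 0.25. This counting was chosen after the data were seen.

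**Figure D4:**
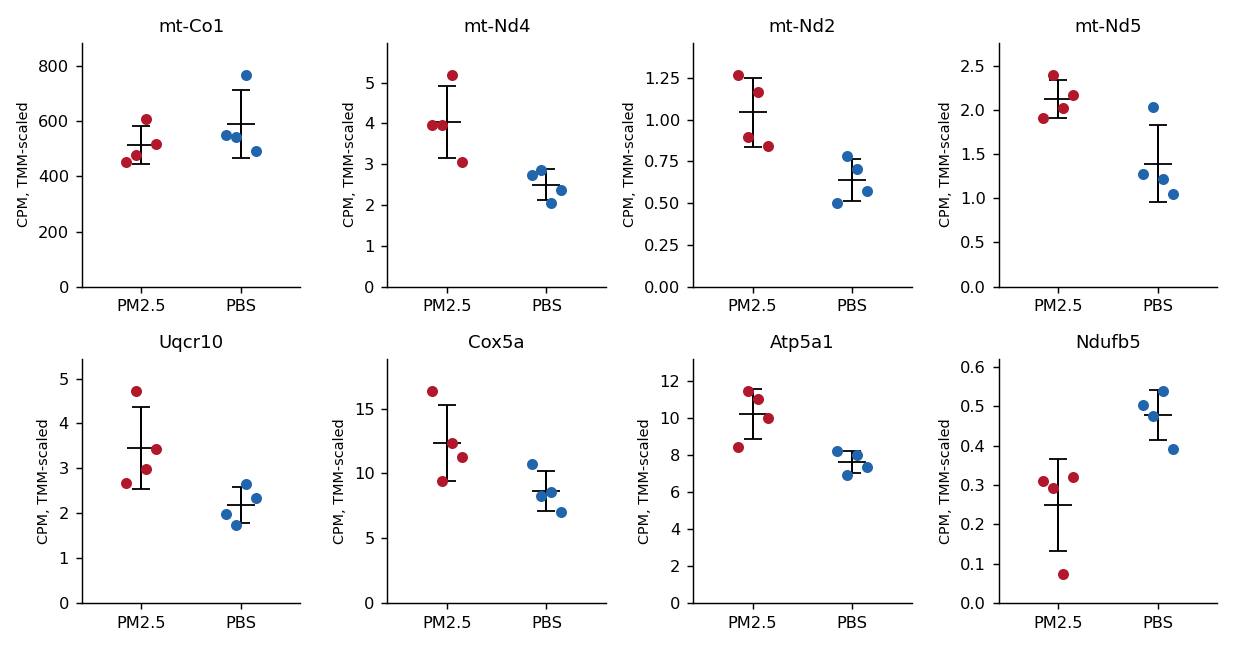
CPM of the TMM-scaled library for 8 genes, each point a library, with the group mean and SD as bars, PM2.5 on the left and PBS on the right. The groups do not overlap in mt-Nd4, mt-Nd2, Uqcr10, Atp5a1 and Ndufb5, and overlap in mt-Co1, mt-Nd5 and Cox5a.

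Taken as a share of all counts outside haemoglobin, the summed mitochondrial genes, which are mostly mt-Co1, were lower in PM2.5 libraries. The 13 genes made up 0.393%, 0.279%, 0.353% and 0.409% in PM2.5 libraries, against 0.487%, 0.547%, 0.555% and 0.468% in PBS libraries (0.359% ± 0.0579 and 0.514% ± 0.0432, SD, n = 4 each). The groups did not overlap, and no exact (Clopper-Pearson) 95% binomial interval was wider than 0.00889 percentage points, which covers counting error only. It follows that replicates 9 and 21, without the 2 PM2.5 libraries that stood apart in scaling, were below every PBS library, which is no separate check. With the copies added, the shares were 0.462% ± 0.0845 in PM2.5 libraries and 0.646% ± 0.0553 in PBS libraries, again without overlap. As a summed share this value carries no test. Most genes were lower on this scaling: with haemoglobin removed and totals, the median log2 fold change was -0.30 for all genes and -0.20 for the nuclear members. It was -0.073 for the mitochondrial genes tested, above that of all genes. Single mitochondrial genes differed: mt-Co1 was at -0.52, mt-Nd6 at -0.55, mt-Cytb at -0.31 and mt-Nd1 at -0.073. mt-Nd2, mt-Nd4 and mt-Nd5 were above 0, at 0.37, 0.30 and 0.23. mt-Co1 supplied 95.7% to 96.8% of the mitochondrial counts in PM2.5 libraries and 95.7% to 97.4% in PBS libraries, so the share is close to that of mt-Co1 alone.

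The nuclear genes did not separate in the same way. They made up 0.373%, 0.323%, 0.346% and 0.473% of non-haemoglobin counts in PM2.5 libraries, against 0.395%, 0.436%, 0.430% and 0.457% in PBS libraries, and PM2.5 replicate 21 was the highest of all 8. The ratio of mitochondrial to nuclear counts was 0.951 ± 0.1001 in PM2.5 libraries and 1.1998 ± 0.1199 in PBS libraries (SD, n = 4 each). It overlapped, since PBS replicate 16 had 1.02 and PM2.5 replicate 9 had 1.05.

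**Figure D5:**
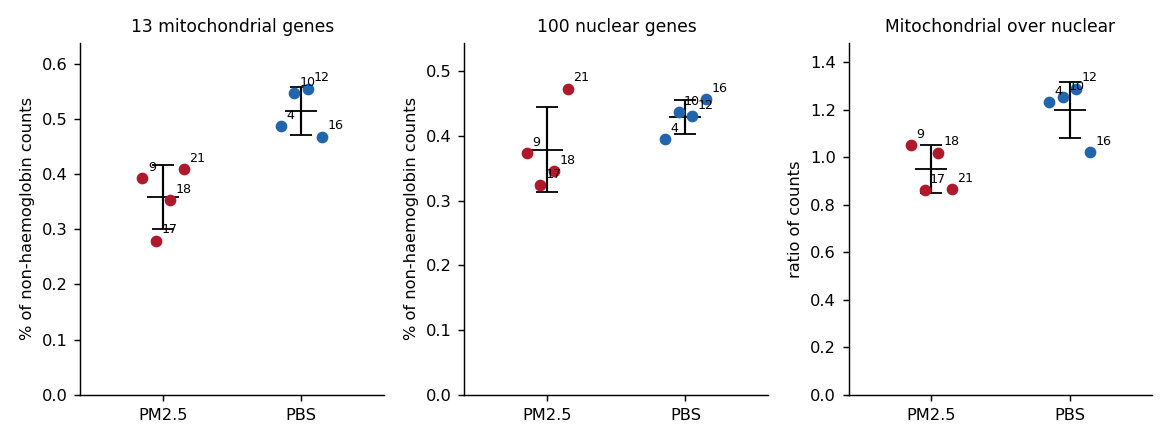
Counts of the 13 mitochondrial genes and of the 100 nuclear genes as a percentage of non-haemoglobin counts, and the ratio of the 2, in each library (points numbered by replicate; bars are the group mean and SD), PM2.5 left of PBS. The mitochondrial share ends at 0.409% in PM2.5 libraries and starts at 0.468% in PBS libraries, while the nuclear share and the ratio overlap. On this scaling the median log2 fold change of all genes was -0.30.

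Ratios within mitochondrial RNA need no scaling between libraries and are given as a description, with no test. The 6 other tested mitochondrial genes together had 3.74 ± 0.440 counts per 100 counts of mt-Co1 in PM2.5 libraries and 2.86 ± 0.495 in PBS libraries (SD, n = 4 each), with overlap. With the copy of mt-Nd4 included, these were 3.88 ± 0.567 in PM2.5 libraries and 3.08 ± 0.557 in PBS libraries, also with overlap. The 4 of them with a log2 fold change above 0.1 were picked after their values were seen, which leaves out mt-Nd6 and mt-Cytb. Those 4, mt-Nd1, mt-Nd2, mt-Nd4 and mt-Nd5, together had 2.15, 1.96, 1.78 and 1.64 counts per 100 counts of mt-Co1 in PM2.5 libraries, against 1.136, 1.47, 0.815 and 1.1497 in PBS libraries, without overlap. Without mt-Nd4, the values were 1.27, 1.13, 0.926 and 1.05 in PM2.5 libraries, against 0.638, 0.942, 0.551 and 0.669 in PBS libraries, and PBS replicate 10 passed PM2.5 replicate 18. With mt-Nd4 and its copy included, PM2.5 libraries had 2.02 ± 0.285 and PBS libraries 1.37 ± 0.305 (SD, n = 4 each), and the lowest PM2.5 and the highest PBS library were both at 1.78. mt-Co3 with its copy came to 20.8 ± 2.68 counts per 100 of mt-Co1 in PM2.5 libraries and 19.4 ± 0.987 in PBS libraries, with overlap.

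In nuclear complex I, 30 of 36 genes tested had a log2 fold change above 0, between -0.89 and 0.54, and none passed the test. Ndufa1 averaged 5.26 ± 1.32 CPM in PM2.5 libraries and 4.44 ± 1.30 in PBS libraries, and Ndufa3 4.75 ± 0.450 and 3.95 ± 0.495 (SD, n = 4 each), both with overlap. Ndufb5, an accessory subunit of the membrane arm, is named because it was the only one of the 90 that was lower at an unadjusted p under 0.05, and was picked after its values were seen. It had 0.311, 0.293, 0.0740 and 0.321 CPM in PM2.5 libraries, against 0.503, 0.476, 0.540 and 0.391 in PBS libraries. These are 25, 16, 4 and 27 counts in PM2.5 libraries, against 55, 51, 40.0 and 43.0 in PBS libraries. The groups did not overlap (log2 fold change -0.89, SE 0.345, adjusted p = 0.198).

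In complex II, all 4 genes overlapped between the groups. Sdha averaged 4.201 ± 0.894 CPM in PM2.5 libraries and 4.06 ± 0.761 in PBS libraries, Sdhb 1.04 ± 0.0607 and 0.910 ± 0.0703, and Sdhc 0.651 ± 0.104 and 0.540 ± 0.117 (SD, n = 4 each). Their adjusted p were 0.908, 0.618 and 0.599.

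In complex III, Uqcr10, a small subunit next to the Rieske protein, had 2.664, 4.73, 2.98 and 3.43 CPM in PM2.5 libraries, against 1.98, 1.74, 2.660 and 2.34 in PBS libraries. The groups just failed to overlap, at PM2.5 replicate 9 and PBS replicate 12, and the log2 fold change of 0.66 did not pass the test (SE 0.191, adjusted p = 0.0928). Uqcrc2, a core protein, had 6.84 ± 1.46 CPM in PM2.5 libraries and 5.45 ± 0.701 in PBS libraries, and Uqcrh 21.3 ± 5.24 and 17.4 ± 3.33 (SD, n = 4 each), with overlap in both. Cycs, the electron carrier between complexes III and IV, had 0.717 ± 0.147 CPM in PM2.5 libraries and 0.634 ± 0.0756 in PBS libraries (SD, n = 4 each; adjusted p = 0.682).

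In complex IV, with which Ndufa4 is counted here despite its name, 11 of 12 nuclear genes tested were above 0 and none passed. Cox5a, which holds a binding site for thyroid hormone metabolites, had 16.4, 9.42, 12.4 and 11.2 CPM in PM2.5 libraries, against 10.7, 8.22, 8.60 and 7.04 in PBS libraries. It overlapped by PM2.5 replicate 17 and PBS replicate 4 (log2 fold change 0.52, SE 0.193, adjusted p = 0.186), and the log2 fold change was 0.32 without PM2.5 replicate 9. Cox6b1, which bridges the monomers of dimeric complex IV, had 7.01, 6.56, 6.61 and 10.04 CPM in PM2.5 libraries, against 6.14, 5.04, 6.22 and 5.32 in PBS libraries, without overlap (log2 fold change 0.41, SE 0.172, adjusted p = 0.224). Without PM2.5 replicate 21 its log2 fold change was 0.25. Cox6b2 averaged 7.79 ± 2.19 CPM in PM2.5 libraries and 7.63 ± 1.599 in PBS libraries, and Cox6c 29.7 ± 7.51 and 27.9 ± 7.34 (SD, n = 4 each). Cox4i1, Cox6a1, Cox7a2, Cox7b and Cox8a had log2 fold changes between 0.05 and 0.26 and adjusted p of 0.501 or more.

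In complex V, Atp5b averaged 188 ± 31.2 CPM in PM2.5 libraries and 181 ± 32.9 in PBS libraries (SD, n = 4 each; log2 fold change 0.05, SE 0.220, adjusted p = 0.922). Atp5a1 had 8.44, 11.5, 11.1 and 10.002 CPM in PM2.5 libraries, against 8.21, 6.90, 7.99 and 7.38 in PBS libraries. Its groups did not overlap (log2 fold change 0.43, SE 0.160, adjusted p = 0.187). Atp5f1, the b subunit of the peripheral stalk, had 6.01, 5.96, 6.75 and 7.16 CPM in PM2.5 libraries, against 5.43, 4.12, 5.74 and 5.04 in PBS libraries, also without overlap (log2 fold change 0.35, SE 0.156, adjusted p = 0.250). Atp5l averaged 46.2 ± 9.12 CPM in PM2.5 libraries and 36.5 ± 7.63 in PBS libraries (SD, n = 4 each; adjusted p = 0.396). Atp5a1 overlaps Haus1 and Atp5f1 overlaps Wdr77, each on the opposite strand, as 41 of the 113 genes overlap some other gene.

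The name rule also catches assembly factors and related proteins. Cox7a2l, which joins complexes III and IV into supercomplexes, averaged 9.16 ± 1.07 CPM in PM2.5 libraries and 8.47 ± 0.654 in PBS libraries (SD, n = 4 each; adjusted p = 0.727). Sdhaf2, which attaches the flavin to Sdha, had 3.01 ± 0.372 CPM in PM2.5 libraries and 2.5005 ± 0.406 in PBS libraries (SD, n = 4 each; adjusted p = 0.384), and 61.0% of its counts were from transcripts annotated as noncoding. Ndufaf7, a methyltransferase needed for complex I, had 0.149, 0.275, 0.167 and 0.439 CPM in PM2.5 libraries, against 0.247, 0.131, 0.0540 and 0.145 in PBS libraries. Those values overlapped widely, and its log2 fold change of 0.82, the highest of the 90, had an SE of 0.471 (adjusted p = 0.361). It was 0.40 without PM2.5 replicate 21 and 0.40 to 1.154 over all libraries left out in turn.

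Other genes of the pathway were read from lists of known roles. Of 26 tested assembly factors that the name rule does not catch, 0 were higher and 1 was lower, where 1.6% of all genes were called. That gene, Acad9, is an acyl-CoA dehydrogenase that is also needed to build complex I. It had 2.20, 2.44, 1.63 and 2.07 CPM in PM2.5 libraries, against 4.31, 4.27, 3.82 and 3.51 in PBS libraries. Acad9 fell in PM2.5 libraries without overlap (log2 fold change -0.93, SE 0.160, adjusted p = 0.00999). Without any single library the adjusted p stayed between 0.0117 and 0.0402. It was 0.101 without PM2.5 replicates 17 and 18 and 0.166 with the erythroid covariate, where the log2 fold changes were -0.89 and -0.87.

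None of 22 tested genes of mitochondrial DNA expression and biogenesis passed the test, with 6 above 0 and a median log2 fold change of -0.19. Polrmt, the mitochondrial RNA polymerase, averaged 0.329 ± 0.0995 CPM in PM2.5 libraries and 0.522 ± 0.0656 in PBS libraries (SD, n = 4 each; adjusted p = 0.216). Slirp, which stabilises mitochondrial mRNA, averaged 0.0626 ± 0.0224 CPM in PM2.5 libraries and 0.137 ± 0.0216 in PBS libraries (SD, n = 4 each; adjusted p = 0.248). Neither gene's groups overlapped, but they were named for having the smallest p of the list. The groups did not overlap for 3 of the 22 genes, and for 9.66% of all genes. Slirp rests on few counts in PM2.5 libraries: replicate 18 had 0.0370 CPM, where 3 counts are 0.0555 CPM. The 66 tested genes of mitochondrial ribosomal proteins had a median of 0.09 with none called, Mrpl32 (0.42) and Mrpl37 (-0.50) having the smallest p. The 16 genes of the citric acid cycle had a median of 0.07 with none called, led by Dld (-0.50) and Ogdh (0.33). The 10 tested genes of ubiquinone synthesis had a median of -0.20 with none called, led by Coq6 (-0.84, and -2.12 without PM2.5 replicate 9) and Coq8a (-0.28). Coq6 had 0.0183, 0.0370 and 0.0238 CPM in PM2.5 replicates 17, 18 and 21. These values lie below the level of 3 counts, which is 0.0356 to 0.0555 CPM in those libraries.

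In the same fit, where 1.6% of all genes were called, blood cell markers were called as follows. Of 8 tested neutrophil markers 5 were higher, of 12 monocyte markers 3 were higher, of 9 natural killer cell markers 1 was higher and of 12 B cell markers 3 were lower. None of 12 T cell markers, 13 platelet markers, 19 erythroid markers or 7 brain markers passed. The summed neutrophil markers ran from 28.8 to 56.3 CPM in PM2.5 libraries and from 14.3 to 27.8 CPM in PBS libraries. Summed monocyte markers ran from 77.4 to 132.9 CPM in PM2.5 libraries and from 61.7 to 102.5 CPM in PBS libraries, and B cell markers from 64.6 to 84.8 and from 75.2 to 120.8. All 13 platelet markers were above 0, with a median log2 fold change of 0.31, and their sum ran from 785 to 1297 CPM in PM2.5 libraries and from 659 to 1219 CPM in PBS libraries. Natural killer cell markers summed to between 6.39 and 11.0 CPM in PM2.5 libraries and between 4.82 and 6.76 CPM in PBS libraries. Their part in the respiratory chain values was not tested.

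Nuclear respiratory chain genes are known targets of nuclear respiratory factor 1 (NRF1), so their promoters were searched for its core motif. The window was 250 bases before to 50 after the start, from RefSeq with GRCm38.p6, and 79 members matched an entry. The motif was GCGCA, any base, then GCGC, on either strand. Windows of 4 genes from different complexes are shown to place the motif, with matches in capitals.
Cox6a1, chr5:115349086-115349145, minus strand: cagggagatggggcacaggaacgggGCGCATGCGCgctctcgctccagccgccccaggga
Atp5h, chr11:115420026-115420085, minus strand: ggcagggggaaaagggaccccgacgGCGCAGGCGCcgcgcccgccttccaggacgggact
Uqcrc1, chr9:108936628-108936687, plus strand: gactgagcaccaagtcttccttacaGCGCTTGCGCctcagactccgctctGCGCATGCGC
Sdhd, chr9:50603894-50603953, minus strand: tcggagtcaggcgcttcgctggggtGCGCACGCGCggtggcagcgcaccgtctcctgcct

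The motif was in 21 of 79 matched promoters (26.6%), where 5.19% of all 27025 promoters held it. Among tested genes alone it was in 16 of 68 members (23.5%) and in 12.1% of 7979 other genes. The ETS core CCGGAAG was in 25% of the tested members and 21.9% of the other tested genes, and GGGCGG, bound by SP factors, in 45.6% and 69.3%. CCAAT was in 44.1% and 43.2%, and TATAAA in 7.35% and 8.77%. Members with the NRF1 motif had a median log2 fold change of 0.10 and those without it 0.11. These are letter matches in a fixed window, and binding was not measured.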

How the data were processed

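Total RNA from 8 buffy coat samples was made into strand-marked libraries with random primers, per the labels' protocols. Reads went through HISAT2 2.0.1, cutadapt 1.9.1 and bcl2fastq 2.17.1.14, and the build was GRCm38, per the submitters' processing notes, which give these names without an order. The counting tool is not given in the sources used here. The authors deposited expected counts, not normalized, and FPKM, scaled by transcript length and library, for 118783 transcripts per the file headers. Of these, 116710 matched GENCODE M21 and were summed to 35944 genes.

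Summed expected counts were rounded, and edgeR 4.0.16 (R 4.3.3) gave the tests (quasi-likelihood, group only, filterByExpr minimum count 10 and total 15, TMM, two-sided, Benjamini-Hochberg over 10361 genes, threshold 0.05). The SE is the size of the log2 fold change over the square root of F. The script was tested on simulated data. No 2 libraries of a group agreed within sampling noise. Copies of mitochondrial genes were found with BLAST 2.17.0. Alternatives were other scalings, no filter, DESeq2 1.42.0, an erythroid covariate, limma 3.58.1, leaving out libraries, and added copies. The limma fits were on log2(FPKM + 1) and log2(FPKM + 0.1) of genes with an FPKM of at least 1 in at least 4 libraries.

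The members and lists were chosen with earlier results of these data known. Genes were named by rule: all mitochondrial genes, the 2 highest in FPKM and the 2 smallest p of each complex, tissue variants of complex IV, and up to 6 genes passing the test, otherwise up to 2 by smallest p, of each pathway list.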

Additional observations from a re-analysis of the deposited data

Results flagged for a closer look

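In 84 groups of 4 libraries examined over the named respiratory chain genes, 5 held a library whose gap to the nearest other exceeded Dixon's 95% critical value; chance flags about 1 group in 20. PM2.5 replicate 21 was flagged 3 times, with 4.18 CPM of mt-Nd6 (the other PM2.5 libraries at 2.77 to 2.92), 10.04 CPM of Cox6b1 (6.56 to 7.01) and 24.99 counts of mt-Nd3 (all at 0). The same library ran highest over the nuclear genes as a set. PM2.5 replicate 9 was flagged for 12.4 counts of mt-Nd4l where the other PM2.5 libraries were at 0. PBS replicate 12 was flagged for 1221 counts of mt-Co3 where the other PBS libraries had 3.75 to 9.23. The last, mt-Nd3 and mt-Nd4l are genes whose chromosome 1 copies hold most of the pair's counts in most libraries, and with the copies added mt-Co3 in PBS replicate 12 had 149.9 CPM, where the other PBS libraries had 99.1 to 108.4.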

How the results depend on the processing

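No paired analysis was possible because the groups share no replicate number. Of 719 values of named genes under the alternatives, 658 kept their direction and side of the threshold, 51 changed sign and 6 passed the threshold only under the alternative. The other 4 are of Acad9, which lost its call there: its log2 fold change was -0.87 with the erythroid covariate, -0.67 and -1.10 in the limma fits on log2(FPKM + 1) and log2(FPKM + 0.1), and -0.89 without PM2.5 replicates 17 and 18. Where a setting moved the median of all genes by more than 0.1, values of named genes were shifted so that this median equals that of the main analysis, 0.04.

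Genes called numbered 166, and 483 with library totals, 624 without the filter, 371 with DESeq2, 8 without PM2.5 replicates 17 and 18, and 0 with the erythroid covariate and in both limma fits. Leaving out single libraries gave 31 (without PBS replicate 10) to 192. Members called numbered 0, and 1 (mt-Co1) with library totals and with haemoglobin removed. Without the filter 4 were called (mt-Nd4, Uqcr10, mt-Co3, mt-Nd3), where 3.46% of 18035 genes were. Of the 4, mt-Co3 and mt-Nd3 each stood high in 1 library only, PBS replicate 12 and PM2.5 replicate 21. DESeq2 called 1 (mt-Nd4), and leaving out single libraries gave 0 to 1 (mt-Nd4 without PM2.5 replicate 21). The median of the nuclear genes was 0.13, and -0.41 with library totals, -0.20 with haemoglobin removed, -0.022 with the erythroid covariate, -0.34 on log2(FPKM + 1) and -0.44 on log2(FPKM + 0.1), and 0.063 to 0.18 with single libraries left out. That of the mitochondrial genes was 0.25, and -0.28 with library totals, -0.073 with haemoglobin removed, -0.10 on log2(FPKM + 1), -0.12 on log2(FPKM + 0.1) and 0.073 with the copies added. It was 0.079 to 0.29 with single libraries left out. The difference in mitochondrial share, -0.155 percentage points, was -0.172 to -0.129 with single libraries left out, -0.113 without PM2.5 replicates 17 and 18, and -0.175 as a share of FPKM.

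Log2 fold changes that changed sign were small. With the erythroid covariate they were -0.20 for Atp5b, -0.057 for Atp5l, 0.026 for Coq8a, -0.13 for Cox4i1, -0.16 for Cox6a1, -0.24 for Cox6b2, -0.016 for Cox6c, -0.15 for Cox7a2, -0.033 for Cox7a2l, -0.031 for Cox7b, -0.11 for Cox8a, -0.19 for Ndufa1, -0.023 for Uqcrc2 and -0.18 for Uqcrh. On log2(FPKM + 1) they were -0.091 for Atp5b, -0.085 for Cox4i1, -0.11 for Cox6a1, -0.15 for Cox6b2, -0.13 for Cox6c, -0.18 for Cox7a2, -0.10 for Cox7a2l, -0.00035 for Ndufa3, -0.022 for Sdha and -0.15 for mt-Cytb. On log2(FPKM + 0.1) they were -0.019 for Cox6a1, -0.067 for Cox6b2, -0.035 for Cox6c, -0.092 for Cox7a2, -0.036 for Cox7a2l, -0.076 for Sdha and -0.12 for mt-Cytb. Without the filter mt-Cytb was at -0.0059. Without PM2.5 replicates 17 and 18, Atp5b was at -0.062, Cox7a2 at -0.0195 and Ndufa1 at -0.0085. With single libraries left out the ranges were -0.054 to 0.19 for Atp5b, -0.0087 to 0.27 for Cox6a1, -0.16 to 0.15 for Cox6b2, -0.055 to 0.14 for Cox7a2, -0.10 to 0.14 for Sdha, -0.12 to 0.097 for mt-Cytb and -0.078 to 0.28 for Cox6c. The cause was not tested. The nuclear members under the filter had at most 16 counts in any library, and whether depth limits them was not tested. Of the mitochondrial ones, mt-Co3, mt-Nd3 and mt-Nd4l share their counts with the copies.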
